A study of Homo sapiens with 151 samples.

Results

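ZNF45, ZNF431, ZNF439, ZNF544 and HKR1 are zinc finger proteins encoded on chromosome 19, and their peak lists, picked by title, are 5 of the 127 lists examined. The study tagged DNA-associated proteins (DAPs) with FLAG in HepG2, a human liver cancer cell line, and sequenced the DNA that came down with a FLAG antibody (ChIP-seq). The labels cite a protocol in which genome editing puts the tag at the end of the DAP's own gene. All lists share this cell line and antibody, no treatment is named, and 24 further samples are input libraries made without antibody. All lists but 6 are preferred data sets in the study's own register, and ZNF431 is one of the 6 that are not. The comparison therefore set the 4 preferred lists ZNF45, ZNF439, ZNF544 and HKR1 against the other preferred lists, and ZNF431 is described beside them. Each DAP has 1 list with no replicate lists, so a difference between 2 lists has no replicate check, and the depth of sequencing is unknown.

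KRAB zinc finger proteins pair a KRAB domain with a row of C2H2 fingers. The fingers read DNA, and the KRAB domain recruits TRIM28, which brings in the methyltransferase SETDB1 and the silencing mark H3K9me3. Their genes stand in clusters on chromosome 19, and many of the family are known to bind transposable elements or the 3′ exons of other zinc finger genes.

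The labels held against the annotation. All 5 genes lie on chromosome 19 of hg38, and their translated coding sequences hold 11 to 15 C2H2 fingers. ZNF439 (chr19:11848726-11883750, plus strand) encodes 504 residues with 11 fingers, and ZNF431 (chr19:21142024-21196053, plus strand) encodes 576 residues with 12 fingers. HKR1 is the product of ZNF875 (chr19:37312837-37369365, plus strand), with 640 residues and 13 fingers. ZNF45 (chr19:43912624-43935282, minus strand) has 682 residues and 15 fingers, and ZNF544 (chr19:58228594-58277495, plus strand) has 715 residues and 12 fingers. At 10 residue positions that mark the KRAB domain, each protein held the usual residue at 8 or more. The tag was not checked in protein or RNA data here.

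List length differed widely among the members. ZNF544 had 14704 peaks, ZNF431 had 14575, HKR1 had 8198, ZNF45 had 2442 and ZNF439 had 555. Signal values as given by the authors cannot be compared across lists. They were used to rank the peaks within each list, and lists were compared over their 500 strongest peaks. All but 4 of the other preferred lists hold at least 500 peaks. ZNF431 and ZNF439 were called against the same input library.

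ZNF431 and ZNF544 were the members whose summits held a motif that recurred in peaks not used to find it, and sites of both are shown first. A motif of 24 bp was found for each list in the 100 bp around the summits of its 500 strongest peaks outside highly bound regions, using peaks of odd rank, and was then counted in the peaks of even rank, called held-out peaks. Highly bound regions are merged peak centres bound by at least 25% of the preferred lists (31 lists). The ZNF431 motif read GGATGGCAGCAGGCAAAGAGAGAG, where a letter stands for a base held by at least 60% of the matched windows. Some strong ZNF431 sites with a match of over 20 bits, private to this list and outside exons, are given below with the motif in capitals, all on the motif's strand.
ZNF431 site near STIM2-AS1: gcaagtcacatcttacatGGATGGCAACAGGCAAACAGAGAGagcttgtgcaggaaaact
ZNF431 site in KYNU: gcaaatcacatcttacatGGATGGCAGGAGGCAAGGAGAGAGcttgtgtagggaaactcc
ZNF431 site in ENSG00000235726: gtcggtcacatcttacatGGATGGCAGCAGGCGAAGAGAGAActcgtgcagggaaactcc
The first is intergenic at chr4:26823135-26823194 (plus strand). The next is at chr2:142950466-142950525 (plus strand) in an intron of KYNU, which encodes the kynureninase of tryptophan breakdown. The last is intronic, at chr2:234873291-234873350 (plus strand). The windows resemble each other beyond the capitals as well, mostly on the left side.

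The ZNF544 motif read NNNTCAGCACCANGGACAGCNNNN. These are letters of RE1, the element bound by the repressor REST, which is known for silencing neuronal genes in other cells. The strongest ZNF544 peaks outside highly bound regions and exons with a match of over 20 bits are shown in the same way, followed by one match in a highly bound region.
ZNF544 site in LYPD5: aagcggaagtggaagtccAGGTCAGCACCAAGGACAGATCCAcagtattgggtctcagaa
ZNF544 site in MARCHF11: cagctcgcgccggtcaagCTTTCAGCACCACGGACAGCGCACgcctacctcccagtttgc
ZNF544 site near SLC32A1: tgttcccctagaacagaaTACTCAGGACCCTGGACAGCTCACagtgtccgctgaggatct
ZNF544 site in CELF5: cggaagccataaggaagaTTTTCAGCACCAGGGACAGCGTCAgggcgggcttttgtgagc
ZNF544 site in NPAS4: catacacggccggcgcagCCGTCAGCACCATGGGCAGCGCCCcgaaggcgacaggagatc
Their places are chr19:43789235-43789294 (minus strand, intron of LYPD5), chr5:16178939-16178998 (minus strand, intron of MARCHF11) and chr20:38680686-38680745 (minus strand, intergenic, summit at -43761 bp from the start of SLC32A1). CELF5 holds the next in an intron at chr19:3244173-3244232 (plus strand), and NPAS4 the last in an intron at chr11:66421732-66421791 (minus strand). SLC32A1 encodes the vesicular transporter of GABA, CELF5 a neuronal RNA-binding protein and NPAS4 a transcription factor induced by neuronal activity. SLC32A1 is only the gene with the nearest start. Whether ZNF544 sites lie near neuronal genes more often than other sites was not tested. The windows share the capitals and little else.

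The ZNF431 motif recurred in most held-out ZNF431 peaks, and the ZNF544 motif in a smaller share of its own. A match stood in 135 of 250 held-out summit windows, or 54% (95% Wilson interval 47.8 to 60.1, counting error only), against 14 of 500 windows of the same width placed 200 bp to either side, or 2.80% (1.68 to 4.64). For ZNF544 the motif matched 52 of 250 held-out summit windows, or 20.8% (16.2 to 26.3), against 3.40% of flank windows (2.13 to 5.38). The intervals of summit and flank windows did not overlap in either list. The motif found for ZNF544 depended on the peaks used. With the 250 strongest peaks outside highly bound regions the letters of RE1 stayed. With all 6855 ZNF544 peaks outside these regions a different motif was found, without the letters of RE1. That motif matched 8.87% of 3427 held-out summit windows (7.96 to 9.87), against 1.90% of flank windows (1.60 to 2.25). RE1 is thus not the only sequence found at ZNF544 summits. Of the held-out ZNF431 matches 82.2% had summit sequence that occurs more than once in the genome. Discovery and held-out peaks of ZNF431 can thus be copies of the same stretch. Its share is therefore no independent check of a sequence preference and cannot be ranked against that of ZNF544.

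The other 3 members gave no motif that held in peaks not used to find it. ZNF45 had a match in 3.60% of 250 held-out summit windows (1.91 to 6.70), against 3.20% of flank windows (1.98 to 5.13). HKR1 had a match in 1.60% of 250 summit windows (0.624 to 4.04), against 2.80% of flank windows (1.68 to 4.64). ZNF439 has only 168 peaks outside highly bound regions, and its motif matched 1 of 84 held-out summit windows and 1 of 168 flank windows. In each of these lists the interval at summits overlapped that in flanks.

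**Figure D1:**
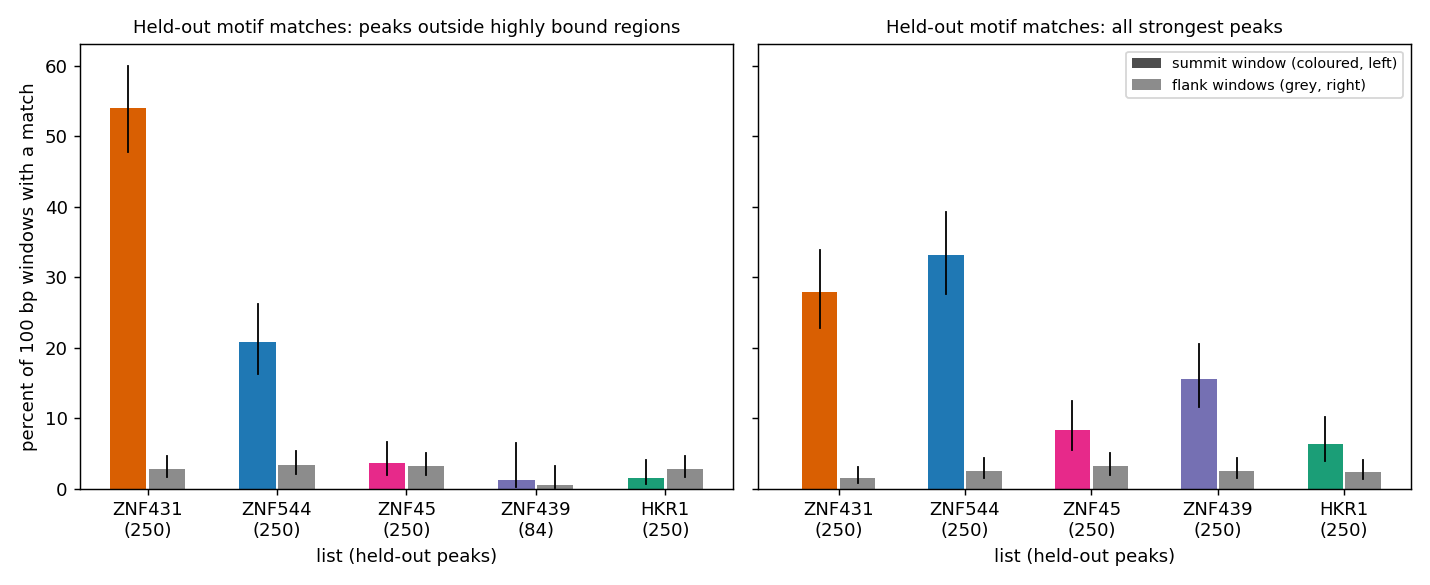
Percent of 100 bp windows with a match to the list's own motif (vertical axis) in held-out peaks of the 5 lists (horizontal axis, number of held-out peaks in brackets), with summit windows in colour and flank windows in grey; lines are 95% Wilson intervals. Outside highly bound regions (left panel) ZNF431 stood at 54% and ZNF544 at 20.8%, while ZNF45, ZNF439 and HKR1 were near their flanks; with all strongest peaks (right panel) ZNF544 led at 33.2%.

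Single words of 8 bases set ZNF431 and ZNF544 apart from ZNF45, ZNF439 and HKR1. The 3 words most enriched at ZNF431 summits were CCATGTAA, CATGTAAG and ATGTAAGA, each searched on both strands and overlapping one another. In the ZNF431 sites printed above they stand on the other strand, mostly just left of the capitals. CCATGTAA stood in 48.4% of the held-out summit windows and 0.2% of flank windows. For ZNF544 the words were GGTGCTGA, CAGCACCA and GTGCTGAA, and CAGCACCA stood in 10% of held-out summit windows and 1.40% of flank windows. The leading word of ZNF45, CCCAGCAG, was in 1.60% of held-out summit windows and 2.40% of flank windows. CAACTGCA of HKR1 was found in neither kind of window, and AGGTGAGA of ZNF439 was in 1 of 84 summit windows.

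When highly bound regions were kept, the motif found for 4 of the 5 lists took on RE1-like letters. ZNF544 then matched 33.2% of held-out summit windows (27.7 to 39.3), against 2.60% in flanks. ZNF439 matched 15.6% (11.6 to 20.6) with CACCNNGGACAGCNCCNNNNNNNN, against 2.60% in flanks. ZNF45 matched 8.40% (5.56 to 12.5) with NCNNNNNCAGCACCANGGANNGCN, against 3.20%, and HKR1 matched 6.40% (3.98 to 10.1) with GCACCNNGGACAGNNCCNNNCNNN, against 2.40% (1.38 to 4.15), and for HKR1 the intervals at summits and flanks overlapped. ZNF431 kept a motif of its own, CANNTCTTACATGGATGGCAGCAG, at 28% (22.8 to 33.9), against 1.60%.

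The RE1-like letters were shared with many lists. The ZNF544 motif matched 31.6% of the 500 strongest ZNF544 peaks (27.7 to 35.8), the 6th highest share among all lists of this length, ZNF431 and other non-preferred lists included. NPAS2 at 39.6%, TSC22D2 and ZCCHC11 at 38.6% each, GLMP at 34% and HES4 at 32% stood above it, and the interval of each overlapped that of ZNF544. ZNF439 had 19.8%, ZNF431 17.2%, ZNF45 10.6% and HKR1 9.80%. Over the 58500 strongest peaks of the preferred lists together 16% had a match, and the median list had 15%, against 5.10% in flank windows. The ZNF544 share can include peaks used to find the motif. Of the 500 strongest ZNF544 peaks, 98.6% lay in highly bound regions, which were left out when the motif was found.

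Matches to the ZNF544 motif followed peak rank. All peaks were counted, and of 1267 matched peaks 1221 were not used to find the motif. Among the 100 strongest ZNF544 peaks 64% had a match (54.2 to 72.7), against 18.4% for ranks 251 to 500 (14.1 to 23.7) and 5.74% for ranks 10001 to 14704 (5.11 to 6.44). Held-out flank windows outside highly bound regions matched at 3.40%. The matched peaks of the whole list therefore include background matches, which make the shares below more alike. Of 1267 matched ZNF544 peaks, 51.7% lay in highly bound regions, against 53.5% of ZNF544 peaks without a match, and 28.5% lay within 500 bp of a transcription start site (TSS), against 38.7% without a match. Of the matched peaks 1.82% were private, against 1.98% without a match, where private means that the 100 bp around the summit touch the 100 bp around no summit of another preferred list. Summits of SALL1, the longest list, lay within 100 bp of 82.8% of them. Repeated sequence, defined as a summit window whose median 24-mer occurs more than once in the genome, was found at 1.18% of the matched ZNF544 peaks, against 3.35% of those without a match.

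Outside highly bound regions, the held-out ZNF431 matches were mostly private. That filter had taken out sites in regions shared by many lists before private peaks were counted. Of the 135 held-out matches, 91.9% were private, 82.2% had repeated sequence and 0.741% lay within 500 bp of a TSS. Over the whole list 1347 ZNF431 peaks held a match, of which 692 were private, against 570 private peaks among the 13228 without a match. Of the 692 private matched peaks 562, or 81.2%, had repeated sequence, and their summit 24-mers had a median of 9 copies in the genome. The share of ZNF431 peaks with a match was 32% among the 100 strongest (23.7 to 41.7) and 5.18% for ranks 10001 to 14575 (4.57 to 5.86). Peaks used to find the motif are counted in the shares by rank. Between genes lay 45.2% of the private matched peaks.

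Agreement between ZNF431 sites went well past the motif. At each position the base most common in the matched discovery peaks was taken, and its share was measured in the other matched peaks. Inside the 24 bp the mean share was 83.2% for ZNF431 (135 peaks) and 72.7% for ZNF544 (52 peaks). From 12 to 50 bp upstream of the motif's middle it was 73.1% for ZNF431 and 23.8% for ZNF544, and from 12 to 50 bp downstream 44.2% for ZNF431 and 26.3% for ZNF544. From 50 to 100 bp upstream ZNF431 still had 60.8%, and 400 to 500 bp away on either side it had 29.1%. Outside the motif 76 positions had a share of at least 60% in ZNF431 and 0 in ZNF544. ZNF431 sites thus shared a stretch of sequence longer than the motif, while ZNF544 sites agreed in the motif alone. The genome used here does not mark repeat families, so no family name is given.

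**Figure D2:**
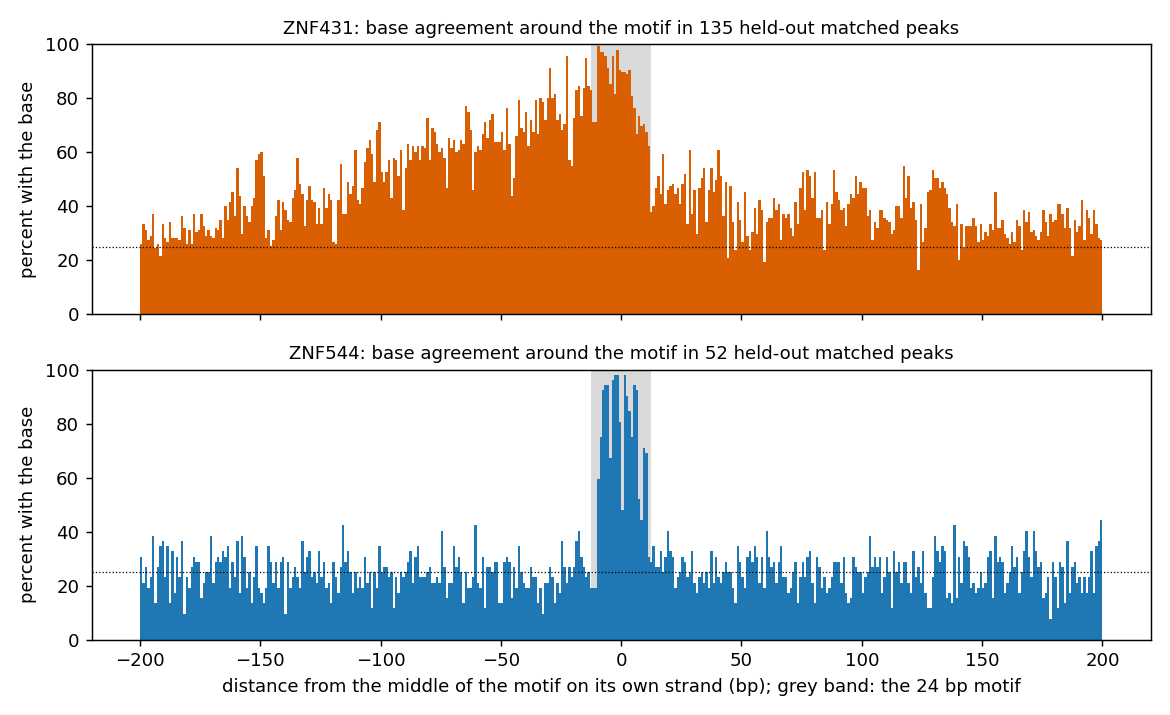
Percent of held-out matched peaks that hold the base most common in the discovery peaks (vertical axis) by distance from the middle of the motif in bp on its own strand (horizontal axis), for ZNF431 above and ZNF544 below; the grey band is the 24 bp motif and the dotted line is 25%. In ZNF431 the agreement spreads upstream (73.1% from 12 to 50 bp), while in ZNF544 it stops at the motif (23.8%).

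The summits stood near the motif in both lists. Among 602 ZNF431 peaks with a match of over 20 bits, the summit lay a median of 10 bp upstream of the motif's middle (quartiles -20 and 3 bp), and 79.9% of summits were within 25 bp. Among 511 such ZNF544 peaks the median offset was 3 bp downstream (quartiles -6 and 11 bp), and 93.3% were within 25 bp.

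Few of the genome's copies of the ZNF431 motif carried a ZNF431 peak. The genome held 5749 matches of over 30 bits, and a ZNF431 summit lay within 100 bp of 458 of them, or 7.97% (7.29 to 8.69). Of these 458, 451 had no summit of any preferred list within 100 bp, and 0.435% of the 5749 matches had a summit of some other preferred list. The 458 include peaks used to find the motif. With those left out, 364 copies with a ZNF431 peak and 5291 without one remained. Between 20 and 25 bits ZNF431 peaks stood at 2% of 13032 matches (1.78 to 2.26). For the ZNF544 motif the genome held 98 matches of over 30 bits, of which 80, or 81.6% (72.8 to 88.1), had a ZNF544 summit and 92.9% had a summit of another preferred list. From 20 to 25 bits ZNF544 peaks stood at 7.72% of 2602 matches (6.76 to 8.81). The ZNF544 counts were likewise made without leaving out the peaks used to find its motif. How reads that map to several copies were handled is not given in the sources used here, and copies without a peak were not tested for it.

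**Figure D3:**
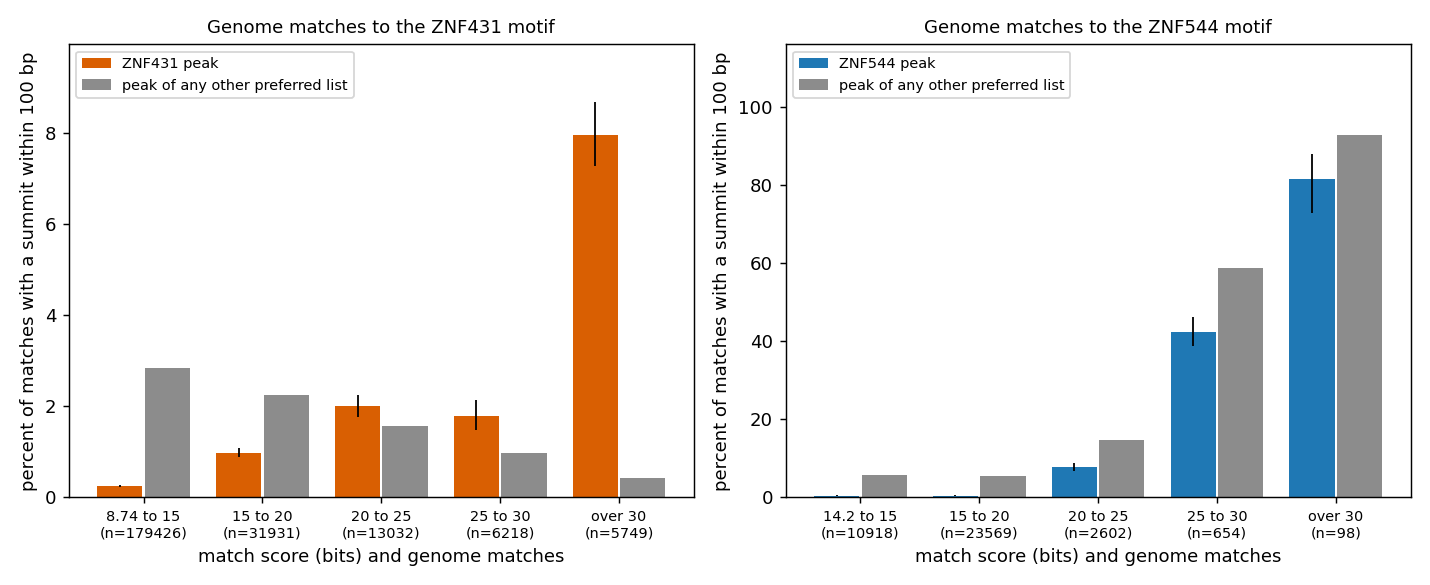
Percent of genome matches to the ZNF431 motif (left panel) and the ZNF544 motif (right panel) with a summit within 100 bp (vertical axis) by match score in bits (horizontal axis, number of matches in brackets), for the motif's own list in colour, with 95% Wilson intervals, and for any other preferred list in grey. At over 30 bits ZNF431 had 7.97% and the other lists 0.435%, while ZNF544 had 81.6% and the other lists 92.9%. Peaks used to find a motif were not left out of the values of its own list.

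Copies with a ZNF431 peak kept more of the stretch upstream of the motif than copies without one. Among matches of over 30 bits, discovery peaks left out, the mean agreement from 12 to 50 bp upstream was 88.4% in 364 copies with a ZNF431 peak and 68.8% in 5291 copies without. Inside the motif it was 93.6% with a peak and 88.5% without, and from 12 to 50 bp downstream 51.7% with a peak and 45.1% without. From 150 to 200 bp upstream the values were 35.9% and 34.4%. Of 4699 copies of over 20 bits that kept at least 80% of the bases from 12 to 50 bp upstream, 7.85% had a ZNF431 peak (7.12 to 8.66), against 1.53% of 17761 copies that kept less than 40% (1.36 to 1.72). The copies of over 20 bits were not split by score. The motif came from ZNF431 peaks, so these values describe the copies and carry no test.

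ZNF430, whose gene stands 82 kb from ZNF431, had the most summits after ZNF431 at high-scoring matches to this motif, though not in other counts. At matches of over 20 bits ZNF431 had a summit at 830 of 24999, or 3.32%, ZNF430 at 170, or 0.680%, and ZMYM4 came next with 30, or 0.120%. The ZNF431 count includes peaks used to find the motif. The genome scan kept matches that scored above every discovery flank window, a stricter limit than that of the motif counts. At all 236356 such matches SALL1 with 1257 summits and ZBTB12 with 1180, both longer lists, came above ZNF430 with 1014. At the 5749 matches of over 30 bits ZNF430 had 11 summits, and 3 matches had a summit of both. The motif found for ZNF430 on its own peaks was TCTCTTGNCTGCCNCCATGTAAGA, with 21.2% of held-out summit windows (16.6 to 26.7) and 4.60% of flank windows. The ZNF431 motif found on private peaks, given on the same strand, was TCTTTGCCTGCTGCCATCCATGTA, with 56.9% of 631 held-out summit windows (53 to 60.7) and 2.93% of flank windows. The ZNF431 motif matched 23.6% of the 500 strongest ZNF431 peaks (20.1 to 27.5), against 10% of those of ZNF746, 9.80% of ZSCAN25, 8.40% of HIC2, 7.20% of ZNF430 (5.25 to 9.81) and 3.57% of the strongest peaks of all preferred lists. In ZNF544, ZNF45, ZNF439 and HKR1 it matched 2.20% to 3.80%, which was at or below the share in their own flank windows. The share of ZNF431 itself counts peaks used to find the motif, so it does not compare with the other lists on equal terms.

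Private peaks were common among the strongest peaks of ZNF431, while those of ZNF439 came from the weaker part of its short list. They were scarce in the other members. Of the 500 strongest peaks, 21.6% of ZNF431 (18.2 to 25.4) were private, 8.80% of ZNF439 (6.62 to 11.6), 1.20% of ZNF45 (0.551 to 2.59), and 0% of ZNF544 and of HKR1 (at most 0.762%). The other preferred lists ranged from 0% to 69.6% around a median of 0.2%, and 3.40% of the strongest peaks of all preferred lists were private. Beside the other preferred lists ZNF431 had the 6th highest share and ZNF439 the 13th. ZNF439 holds only 555 peaks, so its 500 strongest reach close to its weak end, unlike those of longer lists. Its private share was 13.2% for ranks 251 to 500. Among lists that share its input library and hold 500 peaks, the other lists beside ZNF431 had 0% to 8.80%, of which ZNF439 was the highest. The first private peak came at rank 19 in ZNF431, 167 in ZNF45, 784 in HKR1 and 3929 in ZNF544, and 0 of the 100 strongest ZNF439 peaks were private.

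In ZNF431 the private share was highest among the strongest peaks, whereas in the other members it was highest at the weak end. ZNF431 had 26% private peaks among its 100 strongest (18.4 to 35.4), 6.16% for ranks 2501 to 5000 (5.28 to 7.17) and 9.44% for ranks 10001 to 14575 (8.63 to 10.3). HKR1 had 0% among its 100 strongest and 11.3% for ranks 5001 to 8198 (10.3 to 12.5). ZNF544 had 5.06% for ranks 10001 to 14704 (4.47 to 5.72), ZNF45 had 9.71% for ranks 1001 to 2442 (8.29 to 11.3) and ZNF439 had 23.6% for ranks 501 to 555 (14.4 to 36.3). Over whole lists the private peaks numbered 1262 in ZNF431 (8.66%), 514 in HKR1 (6.27%), 289 in ZNF544 (1.97%), 166 in ZNF45 (6.80%) and 57 in ZNF439 (10.3%), against 8.38% of all peaks of the preferred lists.

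**Figure D4:**
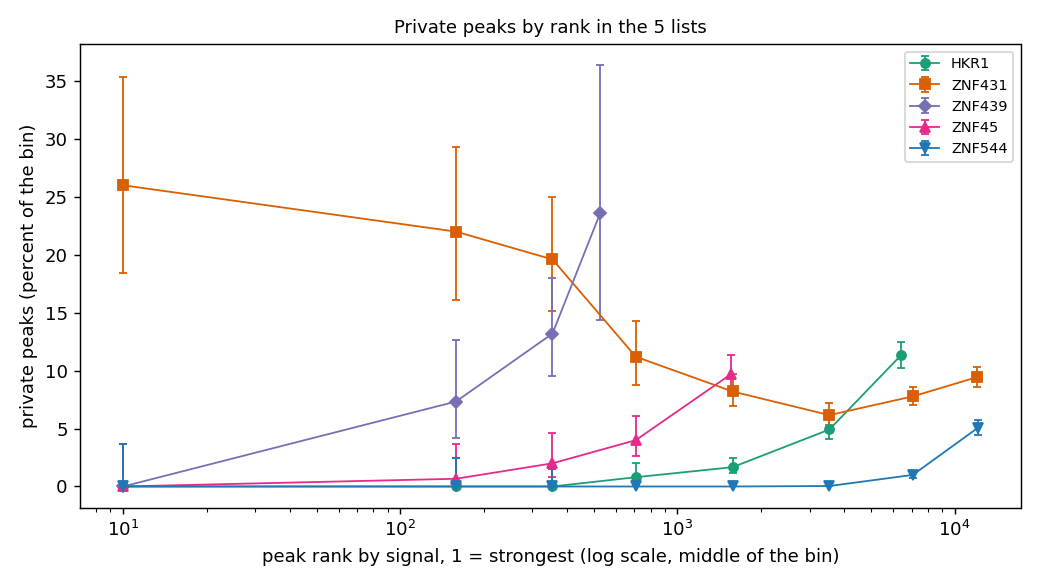
Percent of peaks that are private (vertical axis) by peak rank within the list on a log scale (horizontal axis, rank 1 is the strongest) for the 5 lists, with 95% Wilson intervals. ZNF431 starts at 26%, declines to 6.16% for ranks 2501 to 5000 and stands at 9.44% at its weak end, while ZNF544 stays at 0% through rank 2500 and the other lists are highest at the weak end.

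Many private peaks outside ZNF431 lay beside summits of other lists. With no summit of another preferred list allowed within 500 bp, 781 private peaks were left in ZNF431, 79 in HKR1, 78 in ZNF544, 30 in ZNF439 and 15 in ZNF45. Of these, 573 in ZNF431, or 73.4%, had repeated sequence, against 16.7% in ZNF439, 20% in ZNF45, 12.7% in HKR1 and 3.85% in ZNF544. The strongest private peak of ZNF45, in an intron of FN3K, had summits of 99 lists within 500 bp. The strongest of HKR1, in an intron of LINC02028, and the ZNF544 peaks in introns of CNNM1, RIMBP2 and LRRTM4 had none.

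Among the strongest private peaks of ZNF431 were an intergenic peak near STIM2-AS1 (signal 199) and intronic peaks in ITPK1 (signal 181) and KYNU (signal 177). The ITPK1 peak, unlike the other two, had a summit window found once in the genome. The strongest private peaks of ZNF439 were weaker within their list and lay in introns of VSNL1 (signal 37.1) and CLK1 (signal 36.7). Others of ZNF439 stood between genes 7443 bp from the start of INHA and in an exon of APOB, the apolipoprotein gene that liver cells transcribe at a high level. The private peaks of ZNF45 included introns of RNF149, ABCF1 and PARN, and those of HKR1 introns of SLC25A21 and TCFL5. Median distance to a TSS was 16417 bp for private and 675 bp for other ZNF431 peaks, and 4595 bp for private and 529 bp for other HKR1 peaks.

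As a set the 4 preferred members did not stand apart from the other preferred lists in any of 6 measures. Private peaks averaged 2.50 ± 4.24% in the members and 3.43 ± 10.1% in the other lists (SD over lists), with p = 0.861 in a two-sided exact permutation test over all 7413705 choices of 4 lists. Peaks in zinc finger genes averaged 1.35 ± 0.640% in the members and 1.37 ± 0.630% in the others (exact permutation p = 1), and peaks within 500 bp of a TSS 53.4 ± 13.7% and 52.6 ± 20.6% (exact permutation p = 0.944). Highly bound regions held 88.9 ± 12.2% of member peaks and 84.8 ± 19.9% of peaks in the others (exact permutation p = 0.708). Summits with repeated sequence made up 2.25 ± 1.59% in the members and 3.18 ± 5.35% in the others (exact permutation p = 0.747). The gain of motif matches at held-out summits over flanks averaged 5.53 ± 10.3 percentage points in 3 members, ZNF439 being too short, and 10.9 ± 18.9 in the others (exact permutation p = 0.602). All 6 Benjamini-Hochberg adjusted p-values were 1. With 4 lists of such unlike values a difference of this size could not be told from the spread among lists.

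ZNF431 stood apart from the other members in repeated sequence. At 500 peaks 20% of ZNF431 summits had repeated sequence (16.7 to 23.7), against 4.60% in ZNF439, 1.80% in HKR1, 1.40% in ZNF45 and 1.20% in ZNF544. The median of the preferred lists beside ZNF431 was 1.80%, and 3.15% of the strongest peaks of all preferred lists had it. Among preferred lists, 4 were higher than ZNF431. Of the 500 strongest ZNF431 peaks 71.8% lay in highly bound regions (67.7 to 75.6) and 36% at promoters (31.9 to 40.3). ZNF439 had 72% in highly bound regions and 44% at promoters, whereas ZNF544 had 98.6% and 40.2%, HKR1 97.2% and 69.6%, and ZNF45 87.8% and 59.8%. For all preferred lists the shares were 84.9% in highly bound regions and 52.7% at promoters.

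**Figure D5:**
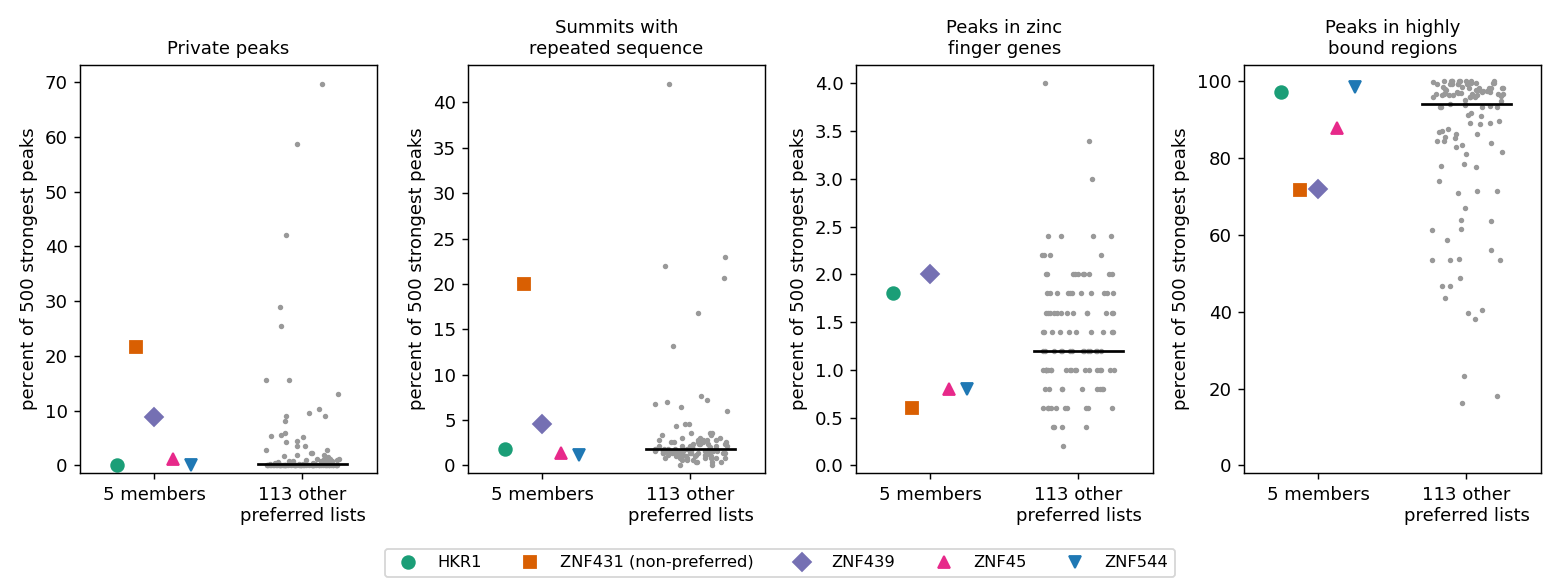
Percent of the 500 strongest peaks (vertical axes) that are private, have repeated sequence at the summit, lie in a zinc finger gene or lie in a highly bound region, for the 5 members (coloured, left) and the other preferred lists (grey, right, with the median as a line). ZNF431 stands above the other members with 21.6% private peaks and 20% repeated summits, and the members lie within the spread of the grey points in each panel.

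Peaks in zinc finger genes were few in all 5 lists and near the share of the other lists. A peak was counted where its summit lay between the ends of any of 573 coding genes named ZNF, ZFP, ZSCAN, ZKSCAN, ZIM, ZIK or HKR. At 500 peaks the counts were 3 in ZNF431 (0.6%, interval 0.204 to 1.75), 4 in ZNF544 and 4 in ZNF45 (0.8%, 0.312 to 2.04), 9 in HKR1 (1.80%, 0.950 to 3.39) and 10 in ZNF439 (2%, 1.09 to 3.64). All preferred lists together had 1.37%, and the other lists ran from 0.2% to 4%. In the last exon, where the finger array is usually encoded, none of the 5 lists had a peak among its 500 strongest, against 0.0513% for all preferred lists. Over whole lists zinc finger genes held 1.85% of HKR1 peaks, 1.80% of ZNF439, 1.5% of ZNF431, 1.43% of ZNF45 and 1.28% of ZNF544 peaks, against 1.55% of the peaks of all preferred lists, and the last exon held 6 peaks of ZNF544, 5 of ZNF431, 1 of HKR1, 1 of ZNF45 and 0 of ZNF439. For ZNF544 that was 0.0408% of its peaks and for ZNF431 0.0343%, against 0.0420% of the peaks of all preferred lists.

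The share of zinc finger gene peaks at zinc finger gene promoters differed among the members. Of 218 such ZNF431 peaks 66.5% were within 500 bp of the TSS of a zinc finger gene, of 152 HKR1 peaks 58.6%, of 188 ZNF544 peaks 48.9%, of 35 ZNF45 peaks 34.3% and of 10 ZNF439 peaks 30%. In all preferred lists the share was 55.5%. Chromosome 19 held 35.8% of them in ZNF431, 38.2% in HKR1, 32.4% in ZNF544, 17.1% in ZNF45 and 20% in ZNF439, against 32.4% in all preferred lists. Private peaks among them numbered 11 in ZNF431, 5 in HKR1, 4 in ZNF544, 3 in ZNF45 and 0 in ZNF439. As shares these were 5.05% in ZNF431, 3.29% in HKR1, 2.13% in ZNF544 and 8.57% in ZNF45, against 5.22% in all preferred lists.

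Some zinc finger genes had peaks of several members. ZFPM1, a cofactor of GATA factors, and ZNF219 had peaks of all 5 members, and 6 more genes had peaks of 4 members: ZKSCAN3, ZNF19, ZNF48, ZNF696, ZNF775 and ZNF23. The most widely shared peak of the members in these 8 genes had summits of 37 (ZKSCAN3) to 99 (ZNF19) other preferred lists within 100 bp, ZFPM1 aside. Another 45 genes had peaks of 3 members, 85 of 2 and 131 of 1. All preferred lists together had peaks in 498 of the 573 genes. How many genes other sets of 5 lists share was not counted, so these numbers do not set the members apart. The ZFPM1 peak in an intron on chromosome 16 was the strongest zinc finger gene peak of each member, at signal 264 in ZNF431, 259 in ZNF544, 188 in HKR1, 124 in ZNF439 and 46.6 in ZNF45, and at least 98.3% of the other preferred lists had a summit within 100 bp. The peak in an intron at ZNF19 ranked next in ZNF439 (signal 40.6) and in ZNF544. Peaks with fewer companions were that of ZNF439 in an intron of ZNF792 (signal 33, 2 other lists) and that of ZNF45 at ZSCAN31 and ZKSCAN3 (signal 42.2, 4 other lists). No member had a peak inside its own gene.

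The strongest peaks of the members were the sites that nearly all lists share. NPAS4, XKR7 and INSM2 held the 3 strongest peaks of ZNF45, ZNF439, ZNF544 and HKR1, and NPAS4 and XKR7 the 2 strongest of ZNF431. At each of these sites at least 98.3% of the other preferred lists had a summit within 100 bp.

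Overlap between the lists was measured as the Jaccard index of summits within 50 bp over the 500 strongest peaks. ZNF544 and ZNF431 overlapped most among the members at 17.2%, followed by HKR1 and ZNF544 at 10.3%, and ZNF439 and ZNF45 least at 4.17%. ZNF431 and ZNF439, which share an input library, overlapped at 9.17%. ZNF544 was closest to NPAS2 (33.2%), TSC22D2 (32.3%) and ZNF140 (30.7%), all 3 called against its own input library. ZNF45 was closest to ZNF284 (8.23%), ZNF669 (8.11%) and ZNF546 (7.64%), also with its own input. ZNF439 was closest to GLMP (14.5%) and FAM200B (14.2%), both with its own input, and then TTF1 (11.5%).

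Lists with the same input overlapped ZNF544 at a median of 22% (15 lists) and other lists at 12.4%. For ZNF45 the medians were 7.41% with the same input (6 lists) and 4.82% with another, and for ZNF439 10.0% (7 lists) and 6.95%. For ZNF431 they were 9.65% (7 lists) and 11%, with ZNF701 (19.8%), GLYR1 and HSF4 (19.3% each) as its closest lists. HKR1 was closest to ZNF704 (12.7%), FOXC1 (12.5%) and GLYR1 (12.4%), none of which shares its input. Lists of one input may share other steps of the work as well, and the part of the input in the overlap was not tested.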

How the data were processed

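The authors called the peaks from ChIP-seq reads with the ENCODE pipeline on hg38 against input libraries, with an aligner and a peak caller not given in the sources used here. For every peak the deposited list gives the position, the authors' score (540 to 1000), the authors' signal value, a q column and the summit. The deposited signal was used for ranking only, and the deposited q column was treated as a score, since some lists hold negative values in it. The members and gene lists were chosen with earlier results of these data known.

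Genes came from GENCODE 44. Proteins were translated from its coding sequences, and no RefSeq protein table was used. A gene's promoter is within 500 bp of its canonical TSS. Motifs were found from 8-mers, with a score threshold that 2% of discovery flank windows pass. Only lists with at least 200 peaks outside highly bound regions entered the motif comparison. Lists are the unit of every test, which was an exact permutation test, two-sided, adjusted by Benjamini-Hochberg over 6 results. Intervals are 95% Wilson intervals over peaks, which are not replicates. Scripts ran with scipy 1.17.1, pandas 2.3.3 and numpy 2.4.6 under Python 3.11.15, and were tested on simulated lists.

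Named items followed this rule: each member's 5 strongest private peaks and 5 strongest peaks in zinc finger genes, zinc finger genes with peaks of at least 2 members, each member's own gene, the 3 closest lists and the 3 most enriched words, plus up to 5 genes with the most member peaks. Other names (ZNF430 and the genes beside printed sequences) were chosen after their values were seen. Some ZNF431 sites that this rule names are not reported here. Alternatives changed the number of peaks, the ranking, the score minimum, the comparison lists and each definition.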

Additional observations from a re-analysis of the deposited data

Results flagged for a closer look

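Among the 5 members, the share of summits with repeated sequence at 500 peaks was 20% in ZNF431, against 1.20% to 4.60% in ZNF544, ZNF45, HKR1 and ZNF439. The gap from ZNF431 to the next list took up more of the range than Dixon's 95% critical value for 5 lists allows, which chance alone passes in about 1 in 20 groups. The value is that of 1 list in the non-preferred class, and its part in the result was not tested. Private share, zinc finger gene share, promoter share, share in highly bound regions and motif gain did not pass this limit.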

How the results depend on the processing

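No comparison of the 4 members with the other lists passed p under 0.05 under any of the alternatives run. Adding ZNF431 turned the difference in private peaks to 2.89 percentage points, in repeated summits to 2.62, in motif gain to 6.06 and in promoter peaks to -2.71. Whole lists turned the promoter difference to -1.39, 250 peaks turned the zinc finger gene difference to 0.0809, and KRAB lists alone, chosen after seeing the data, turned the promoter difference to -2.87 and the highly bound difference to -0.238. Leaving out each member gave differences of -3.03 to -0.0968 points for private peaks, -0.240 to 0.160 for zinc finger genes, -4.63 to 5.17 for promoters, 0.858 to 9.72 for highly bound regions, -1.71 to -0.581 for repeated summits and -11.3 to -1.99 for motif gain. Motif gain of single lists with highly bound regions kept was 26.4 points for ZNF431, 30.6 for ZNF544, 13 for ZNF439, 5.20 for ZNF45 and 4 for HKR1. In private peaks alone, an alternative added after seeing the data, it was 0 for ZNF544 and -1.79 for ZNF439, and with a threshold of 0.5% -0.595 for ZNF439. Whole lists changed the ZNF544 motif itself, as given above. With summits within 250 bp the median overlap was 12.8% for HKR1 and 7.93% for ZNF45. The planned count of fingers in RefSeq proteins was not run, and fingers in GENCODE translations were used. No paired analysis was possible because each DAP has 1 list. The causes of these shifts were not tested.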

Other observations

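Peaks of the members near each other's genes are given without a count for other lists or genes, so their number cannot be weighed. HKR1 had 4 peaks within 5000 bp of ZNF439, 2 of them at its promoter. ZNF544 had 2 peaks within 5000 bp of its own gene but outside it, and ZNF431 had 2 near ZNF544. Within 5000 bp of the HKR1 gene ZNF431, ZNF45 and ZNF544 had 1 peak each, and within 5000 bp of ZNF439 ZNF431 and ZNF544 had 1 each. ZNF45, ZNF439, ZNF431 and HKR1 had none within that distance of their own genes. The promoter of ZNF45 had peaks of 33 preferred lists, that of ZNF439 of 29, that of ZNF431 of 25, that of ZNF544 of 19 and that of the HKR1 gene of 0.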
